A study of Homo sapiens with 4 samples.

Results

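Huh7-C, a stem-like culture grown from the established human hepatoma cell line Huh7, was compared with parental Huh7 by RNA sequencing. The comparison took 2 of the 4 libraries of the series, chosen by the cell line named in the labels, and joined their read counts by gene. The labels place Huh7-C among hepatic cancer stem cells (HCSC) and Huh7 among hepatocellular carcinoma cells (HCC), and the other 2 libraries, Hep3B and Hep3B-C, are a second pair of the same kind. Both cultures of the Huh7 pair share the Huh7 background, neither is labelled with an agent, a sort or a time in culture, and total RNA was taken from each. With 1 library for either culture, no difference had a replicate check, and the culture, the RNA preparation and the sequencing library cannot be told apart. In bulk RNA, fewer cells of a type and less RNA per cell cannot be told apart either.

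Hepatocytes secrete most proteins of blood plasma, package fat into lipoproteins, release glucose during fasting and make bile acids, and hepatoma lines keep part of this programme. Huh7 is a well differentiated line of this kind. Cancer stem cells are defined by self-renewal and the ability to seed tumours, and in liver cancer they are usually recognised by surface proteins such as PROM1 (CD133), EPCAM and THY1 (CD90). The comparison asks which parts of the liver programme, of metabolism and of growth signalling differ between Huh7-C and the line it came from. The authors describe their stem-like cultures as enriched for hepatic cancer stem cells.

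The Huh7 library held 4537510 counts on genes and the Huh7-C library 4333808. The files listed 14807 genes for the pair, and 9764 of them had at least 50 counts summed over both libraries and are described here. These genes took 99.2% of the Huh7 counts and 99.3% of the Huh7-C counts. Levels are counts, or counts scaled to the library total (CPM), and differences are log2 ratios of CPM, Huh7-C over Huh7, with 0.5 added to each count. A single value in brackets after a pair of counts is this log2 ratio, and a range after it is its interval. The intervals are exact 95% intervals (Clopper-Pearson) that cover counting error only, since reads are not independent molecules. They reached 0.86 to either side on the log2 scale for 50 counts split evenly between the libraries, 0.41 for 200 counts and 0.18 for 1000 counts. A fold against a count of 0 is given as a lower bound, taken against a floor of 3 counts in that library and without the counting error of the other library. A count of 0 allows up to 3 counts, which is 0.661 CPM in Huh7 and 0.692 CPM in Huh7-C.

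Liver identity was read from 15 hepatoma markers, of which 13 had at least 50 counts in the pair. Keratins 8 and 18, filaments of hepatocytes and of other simple epithelia, were strongly expressed. KRT8 had 21662 and 24774 counts and KRT18 had 22705 and 30394 in Huh7 and Huh7-C. APOB had 21696 and 32452 counts, and the hepatocyte transcription factor gene HNF4A had 1726 and 1159. The oncofetal protein gene AFP, a usual hepatoma marker, was nearly absent from both, with 26 and 12 counts, and the thyroid hormone carrier TTR had 13 and 13. The markers thus did not all go the same way, and the identity of the line was not tested. Of 26 markers of stellate cells, fibroblasts, endothelium, leukocytes and red cells, 11 were listed and 5 had at least 50 counts. The leukocyte gene PTPRC and the stromal gene COL1A2 were not listed. The 5 were PECAM1 of endothelium (17 and 93 counts, 2.48), COL3A1 (0 and 58), PDGFRB (186 and 2), CD68 (610 and 433) and LYZ (236 and 394), while the endothelial gene VWF had 1 and 0 counts. Their part in the results was not tested.

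The profiles were close for most genes. The median log2 ratio was 0.066, the middle 50% of genes lay between -0.31 and 0.44, and 89.0% of genes differed by less than 1 on the log2 scale. Past a log2 ratio of 1 in size, 563 genes were higher in Huh7-C, which is 5.77% of those described, and 510 were lower, which is 5.22%. The lower genes held 10.1% of all Huh7 counts and 3.59% of those of Huh7-C, whereas the higher genes rose from 2.13% to 5.46%. At a log2 ratio of 3 or more in size, 36 genes were higher and 46 lower.

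**Figure D1:**
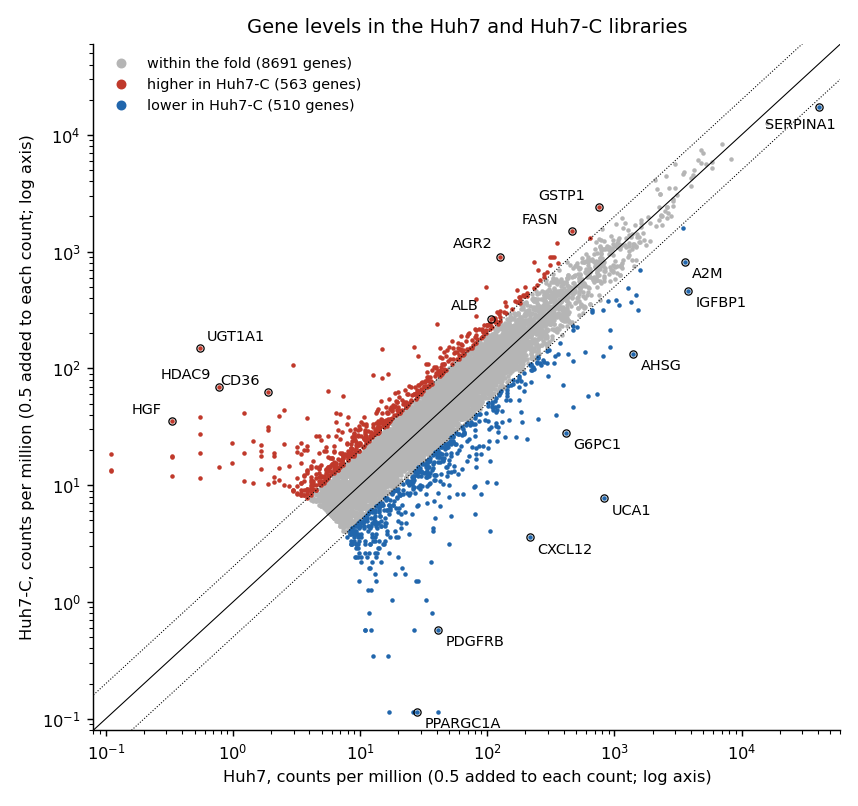
Each point is 1 of the 9764 described genes, at its CPM in Huh7 (horizontal, log axis) and Huh7-C (vertical, log axis), with 0.5 added to each count. The solid line marks equal levels and the dotted lines a log2 ratio of 1 and -1. Red points are the 563 genes higher in Huh7-C and blue points the 510 lower, and the secreted liver proteins SERPINA1, A2M, IGFBP1 and AHSG stand out among the abundant genes below the line.

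Gene length moved with the ratio and is given first, because it touches several of the gene groups. The Spearman correlation of the log2 ratio with gene length across described genes was 0.351, a description across genes of the same pair of libraries. In the quintile of the shortest genes (145 to 1716 bases) the median log2 ratio was -0.19, and in the quintile of the longest (4989 to 59461 bases) it was 0.40. Of the longest genes, 14.2% were higher and 3.17% lower, and of the shortest, 2.10% were higher and 6.96% lower. A smooth trend of the ratio on length was therefore removed as a second reading of every value. With the trend removed, 409 genes (4.19%) were higher and 499 (5.11%) lower, and 345 and 420 of these were among the genes called without it. Values with the trend removed are given below for a part of the genes and for several lists whose counts they change. Counts of list members past the fold stand against 5.77% higher and 5.22% lower over all described genes, and some list shares are near these. Among the 10 largest rises in CPM, the long genes PRPF8, MKI67, SRRM2 and HUWE1 were past the fold only as counted. They were at 1.03, 1.52, 1.42 and 1.31 as counted, and at 0.67, 0.86, 0.94 and 0.55 with the length trend removed.

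**Figure D2:**
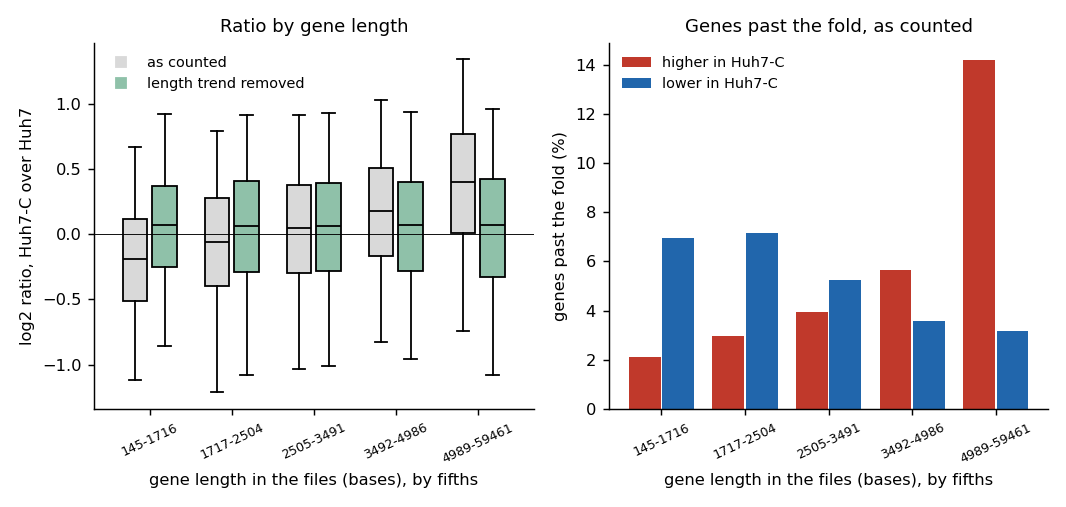
Left, log2 ratio of Huh7-C over Huh7 by quintile of gene length in bases, as counted (grey) and with the length trend removed (green). Boxes are quartiles with the median, and whiskers reach the 5th and 95th percentiles. Right, percentage of genes in each quintile that were past the fold as counted. The median rises from -0.19 in the shortest to 0.40 in the longest genes, and the share of higher genes from 2.10% to 14.2%.

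Secreted plasma proteins had the lowest median of the gene lists examined. Of 22 described plasma protein genes, 13 fell, 1 rose and 8 stayed within the fold, and their median log2 ratio was -1.39, against 0.066 over all described genes. The median was -1.38 with the length trend removed. SERPINA1, which encodes alpha-1-antitrypsin, the protease inhibitor that protects the lung, had the most counts in both libraries. It had 183846 counts in Huh7 and 74907 in Huh7-C, a log2 ratio of -1.23 (-1.24 to -1.22). A2M, a broad protease inhibitor of plasma, went from 16256 to 3525 counts (-2.14), and the fibrinogen alpha chain gene FGA from 15840 to 6844 (-1.14). The beta and gamma chain genes FGB and FGG, at -0.93 and -0.81, stayed just within the fold, as did VTN at -0.99.

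Among the carriers, AHSG (fetuin-A) fell from 6396 to 577 counts (-3.40). The iron carrier TF fell from 7019 to 1384 (-2.28). The retinol carrier RBP4 fell from 4169 to 658 (-2.60). These 3 are among the larger losses in the group. The acute phase proteins reached further down, with SAA4 at 480 and 17 counts (-4.71), ORM1 at 403 and 36 (-3.40), and LBP, the carrier of bacterial lipopolysaccharide, at 57 and 1 counts (-5.19, interval -11.10 to -3.23). ALB was the exception. Albumin counts rose from 482 to 1156 (1.33, 1.17 to 1.48).

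More genes of complement and coagulation fell than rose. Of 22 described genes, 8 fell and 1 rose, and the median log2 ratio was -0.75. C8B, a subunit of the membrane attack complex, went from 130 to 6 counts (-4.26), while the subunit genes C8A and C8G, at -0.68 and 0.47, stayed within the fold. HABP2, a plasma protease that activates factor VII, fell from 2805 to 251 (-3.41), and SERPINF2, the inhibitor of plasmin, from 1572 to 174 (-3.11). Prothrombin (F2) at 1254 and 507 counts (-1.24) and complement C3 at 7166 and 2992 (-1.19) fell less. The gene that rose was CD46, a membrane protein that protects cells from complement, with 378 and 768 counts (1.09).

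Several apolipoproteins, the protein coat of lipoproteins, fell. Of 14 described genes of lipoprotein assembly, 8 fell and none rose, with a median of -1.10. APOC3, an inhibitor of lipoprotein lipase, fell from 931 to 108 counts (-3.04). APOE, the ligand that brings remnants to liver receptors, fell from 4217 to 922 (-2.13). APOA1, the main protein of high density lipoprotein, fell from 6125 to 1601 (-1.87). APOB, the large scaffold of low density lipoprotein, had 21696 and 32452 counts (0.65). The apolipoprotein genes that fell are short and APOB is long. With the length trend removed 4 genes were past the fold in place of 8, while APOB stood at -0.09. MTTP, which loads lipid onto APOB, was at -0.50.

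**Figure D3:**
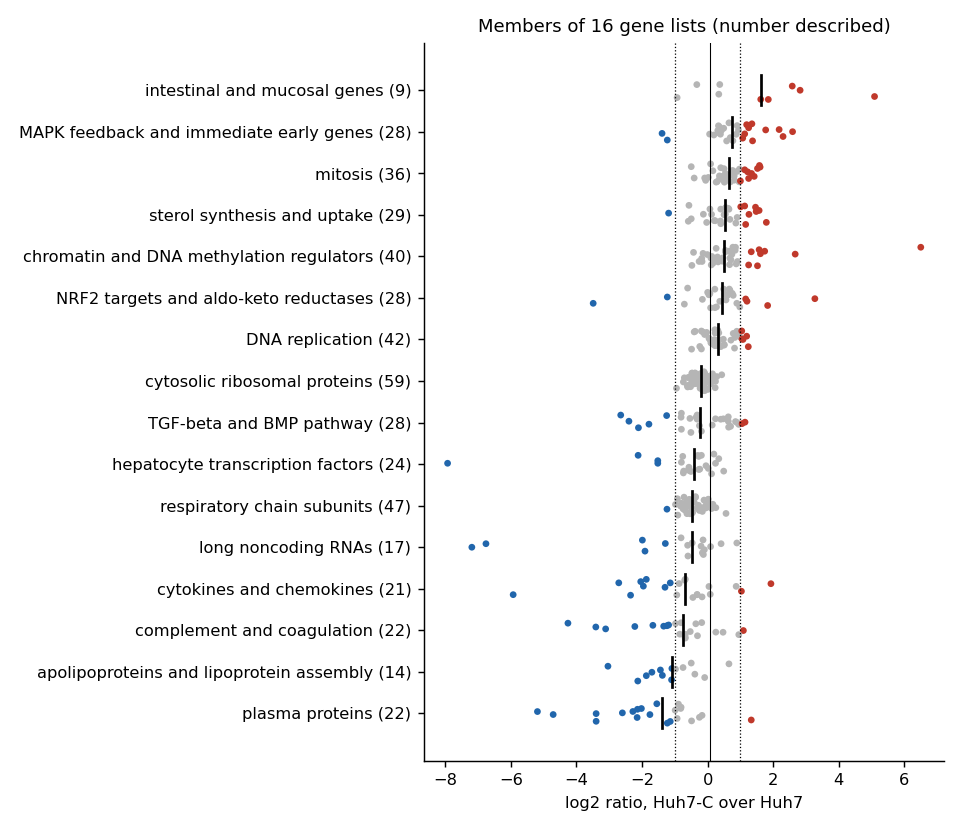
Log2 ratio of Huh7-C over Huh7 for the described members of 16 gene lists, 1 point per gene, with red for genes past the fold and higher, blue for those lower and grey for the rest. Thick bars are list medians, the thin line is the median of all described genes (0.066), and dotted lines mark -1 and 1. Plasma proteins (median -1.39) and apolipoproteins (-1.10) lie furthest to the left, and the 9 intestinal and mucosal genes (1.62) furthest to the right. Some of these 9 reached the count minimum only through Huh7-C.

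The transcription factors that maintain hepatocyte identity had a median nearer to 0 than the genes of secreted proteins. Of 24 described factors, 4 fell and none rose, with a median of -0.40. HNF4A was at -0.51 (1726 and 1159 counts) and FOXA2 was at -0.30, both within the fold. CEBPA, a factor of mature hepatocytes, fell from 462 to 154 counts (-1.52), and HLF, a clock-controlled factor, from 469 to 103 (-2.12). The bile acid receptor gene NR1H4 (FXR) fell from 46 to 15 (-1.52). PPARGC1A, the coactivator that switches on fasting metabolism, had 127 counts in Huh7 and none in Huh7-C, at least 40.4-fold lower.

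Enzymes of glucose release fell as well. G6PC1 (G6PC in the files), whose product frees glucose from glucose 6-phosphate, went from 1895 to 122 counts (-3.89, -4.17 to -3.63). PCK1, the cytosolic enzyme that commits oxaloacetate to glucose, went from 489 to 137 (-1.77), and pyruvate carboxylase (PC) from 996 to 469 (-1.02). The mitochondrial isoform PCK2, at 459 and 533 counts (0.28), did not pass the fold. In the whole list of gluconeogenesis and glycogen genes, 5 of 19 fell and 1, FOXO1, rose (1.05, but 0.79 with the length trend removed). IGFBP1, an insulin-repressed secreted binding protein of insulin-like growth factors, had the largest fall in CPM after SERPINA1 among genes past the fold. It fell from 17240 to 1995 (-3.04), and its relative IGFBP3 from 6720 to 1834 (-1.81).

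Other hepatocyte functions lost members as well. BAAT, which conjugates bile acids to amino acids, had 75 counts in Huh7 and 1 in Huh7-C (-5.59, -11.49 to -3.64). Of 16 described genes of the urea cycle and amino acid breakdown, 5 fell and 1 rose. MAT1A, the liver enzyme that makes S-adenosylmethionine, fell from 369 to 61 (-2.52), and ARG2, a mitochondrial arginase, from 464 to 89 (-2.31). CPS1, the first enzyme of the urea cycle, was abundant in both, with 15785 and 20082 counts (0.41), and HPD, which degrades tyrosine, rose from 29 to 151 (2.43). Of 20 described phase I drug enzymes, 6 fell (5 with the length trend removed) and 2 rose, among those that fell them FMO5 from 153 to 30 (-2.27) and CYP2J2 from 236 to 56 counts.

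Several enzymes of sterol synthesis rose. Of 29 described genes of sterol synthesis and uptake, 8 rose and 1 fell, with a median of 0.54 (0.69 with the length trend removed, when 7 rose). The pathway turns acetyl-CoA into cholesterol and is held in check by sterols through the SREBP factors. HMGCS1, which makes HMG-CoA, rose from 369 to 1219 counts (1.79, 1.62 to 1.96). MVD, a later enzyme of the mevalonate branch, rose from 218 to 620 (1.57). Downstream, FDFT1 was at 1.13, SQLE at 1.48 and DHCR7 at 1.16. INSIG2, which retains SREBP in the endoplasmic reticulum, was the member that fell, from 77 to 32 (-1.19).

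Promoters of sterol genes are known for CCAAT boxes, bound by NF-Y, next to SREBP elements. Sequences of 300 bases, 250 before the start and 50 after, were taken from RefSeq (GRCh38.p14) and matched 8082 of the 9764 described genes. The letters CCAAT, on either strand, were in at least 1 promoter of 17 of 22 sterol genes with an entry (77.3%), against 43.8% of all described genes with one. Other lists had shares as high, with 83.9% for the amino acid and ER stress list and 83.3% for mitosis, and the plasma protein list, most of whose members fell, had 64.7%. The SREBP element TCACNCCAC was in 1 of the 22 (4.55%, against 1.47%). Over the whole set the CCAAT share was 44.1% in the higher and 44.4% in the lower genes. The promoters of 3 sterol genes that rose are shown with their CCAAT boxes, or the complement ATTGG, in capitals, at chr5:43313363-43313662, chr16:88663042-88663341 and chr11:71448344-71448643, all on the minus strand and written 5′ to 3′ along the gene.
HMGCS1: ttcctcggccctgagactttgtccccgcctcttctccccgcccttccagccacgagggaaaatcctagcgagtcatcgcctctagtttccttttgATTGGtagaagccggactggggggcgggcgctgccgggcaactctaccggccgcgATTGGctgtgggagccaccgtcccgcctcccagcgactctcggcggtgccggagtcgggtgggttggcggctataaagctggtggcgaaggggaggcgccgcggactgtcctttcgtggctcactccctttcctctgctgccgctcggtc
MVD: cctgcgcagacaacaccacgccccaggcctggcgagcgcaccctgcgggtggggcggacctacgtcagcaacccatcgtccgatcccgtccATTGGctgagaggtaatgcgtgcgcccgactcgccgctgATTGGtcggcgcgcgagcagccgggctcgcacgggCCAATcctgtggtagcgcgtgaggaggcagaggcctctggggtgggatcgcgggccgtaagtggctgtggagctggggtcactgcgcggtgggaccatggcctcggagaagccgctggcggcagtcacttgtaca
DHCR7: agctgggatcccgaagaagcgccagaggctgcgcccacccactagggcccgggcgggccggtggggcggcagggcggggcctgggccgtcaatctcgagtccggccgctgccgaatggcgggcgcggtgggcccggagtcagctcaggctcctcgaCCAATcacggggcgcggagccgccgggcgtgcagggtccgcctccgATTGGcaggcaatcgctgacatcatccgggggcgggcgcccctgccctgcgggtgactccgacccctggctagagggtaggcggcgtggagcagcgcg

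In MVD the 3 boxes begin 159, 120 and 85 bases before the start, in HMGCS1 the 2 begin 155 and 100 bases before it, and in DHCR7 the 2 begin 94 and 48 bases before it. HMGCS1 and DHCR7 have 2 promoter entries each, and the entry shown is the one with the most matches. These matches are letters in a window and no measure of binding.

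Genes of fatty acid metabolism went in both directions. Of 29 described genes of fatty acid synthesis and desaturation, 4 rose and 5 fell. FASN, the synthase itself, had the second largest rise in CPM among genes past the fold, from 2124 to 6497 (1.68, 1.61 to 1.75). ACACA, which supplies its malonyl-CoA, rose as counted but was not past the fold with the length trend removed. The desaturase gene SCD was just within the fold at 9489 and 17674 counts (0.96). PLIN2, the coat of lipid droplets, fell from 877 to 279 (-1.58), and ACSL4, which activates arachidonic acid, from 1336 to 484 (-1.40). In oxidation, 4 of 29 fell (13.8%, 3 genes with the length trend removed) and 2 rose (6.90%), against 5.22% and 5.77% over all described genes. CPT1A, the gate of fatty acids into mitochondria, fell from 2320 to 986 (-1.17), whereas the fatty acid importer CD36 rose from 8 to 273 (5.07, 4.16 to 6.39).

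Detoxifying genes included the highest log2 ratio of the pair. UGT1A1, which conjugates bilirubin, had 2 counts in Huh7 and 651 in Huh7-C, a log2 ratio of 8.09 (6.55 to 11.46). UGT1A genes share their last exons, so how reads were divided within the locus is uncertain, and UGT1A6 was listed at 0 and 33 counts. GSTP1, a glutathione transferase, had the largest rise in CPM among genes past the fold, from 3459 to 10490 (1.67, 1.61 to 1.72). Of 18 described UDP glucuronosyltransferases and phase II enzymes, 2 rose and 2 fell (11.1% each), with a median of -0.16. The shares over all described genes were 5.77% and 5.22%. The 1 described UGT2 gene was at -2.09, and the 10 glutathione transferases had 1 higher, none lower and a median of -0.39. Of 28 described NRF2 targets and aldo-keto reductases, 4 rose and 2 fell, with a median of 0.43. NRF2 is the factor that answers oxidative stress. NQO1, a quinone reductase and a classic target, rose from 191 to 648 (1.83), and GPX2, a glutathione peroxidase of the gut, from 17 to 161 (3.27). The glutamate ligase subunits GCLC (0.56) and GCLM (0.37) and HMOX1 (-0.16) stayed within the fold. AKR1C1 fell from 533 to 45 (-3.49), with the near-identical AKR1C2 at -0.71 and AKR1C3 at -0.61, and reads of these paralogs may have been split.

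The antioxidant element TGACNNNGC, on either strand, was in a promoter of 7 of 23 genes of that list with a RefSeq entry (30.4%), against 20.2% of described genes with one. The share was 18.4% in the higher and 19.3% in the lower genes, and several other lists had larger shares, such as 46.2% for hepatic transporters and 36.4% for p53 and cell death. It is shown in capitals for GSTP1 (chr11:67583562-67583861, plus strand), and GPX2 (chr14:64942696-64942995, minus strand), where it lies on the opposite strand.
GSTP1: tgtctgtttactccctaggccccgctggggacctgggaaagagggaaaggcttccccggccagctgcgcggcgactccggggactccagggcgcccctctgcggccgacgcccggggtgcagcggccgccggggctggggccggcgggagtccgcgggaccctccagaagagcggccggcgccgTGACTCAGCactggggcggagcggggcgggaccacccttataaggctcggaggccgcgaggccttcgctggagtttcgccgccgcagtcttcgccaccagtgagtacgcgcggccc
GPX2: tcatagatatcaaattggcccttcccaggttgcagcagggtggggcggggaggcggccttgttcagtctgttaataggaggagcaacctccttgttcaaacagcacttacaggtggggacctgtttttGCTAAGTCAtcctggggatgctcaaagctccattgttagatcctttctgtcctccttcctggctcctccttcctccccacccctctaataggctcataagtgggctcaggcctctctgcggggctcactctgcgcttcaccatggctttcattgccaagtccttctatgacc

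Several feedback genes of the MAPK pathway rose. These genes are switched on by ERK and in turn dampen it, so their levels are a common readout of the pathway. Of 28 described feedback and immediate early genes, 10 rose and 2 fell, with a median of 0.73 (11 and 2 with the length trend removed). The ERK phosphatase gene DUSP6 had 277 and 632 counts (1.25) and DUSP4 had 22 and 105 (2.30). The Sprouty genes SPRY1 and SPRY4, inhibitors of receptor tyrosine kinase signalling, went from 46 to 151 (1.77) and from 74 to 181 (1.35). LRIG1, which removes the EGF receptor, rose from 10 to 60 (2.59), and the ETS factor genes ETV4 and ETV5 were at 1.07 and 1.19. MYC, at 238 and 424 counts, was just short of the fold (0.90). DUSP1, from 432 to 157 (-1.39), and KLF6, from 295 to 120 (-1.23), fell. Both are stress-induced early genes.

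Growth factor and receptor genes showed some of the largest single changes. HGF, the ligand of the MET receptor, rose from 1 to 152 counts (6.73, 4.81 to 12.63), while MET itself was at 0.79. PDGFRB, a receptor of platelet-derived growth factor, had 186 counts in Huh7 and 2 in Huh7-C (-6.15, -9.53 to -4.60). Among the Eph receptors, which sense neighbouring cells, EPHB6 fell from 227 to 13 (-4.01) and EPHB2 from 54 to 13 (-1.95), and EPHB3 rose from 4 to 67 (3.97). EGFR, with 878 and 1019 counts, stayed within the fold (0.28).

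In TGF-beta and BMP signalling, 5 of 28 described genes fell (17.9%) and 2 rose (7.14%), against 5.22% and 5.77% over all described genes. The activin and inhibin subunit genes INHBB, from 227 to 34 (-2.65), and INHBE, from 174 to 31 (-2.40), fell with the activin antagonist FST, from 197 to 54 (-1.79). The BMP targets ID1 and ID2 were at -1.25 and -2.11. None of the 8 described receptors passed the fold. The ligand genes BMP4, from 50 to 106 (1.14), and GDF15, a stress-induced member of the family, from 714 to 1412 (1.05), rose.

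In the list of cytokines, chemokines, receptors and related genes, more fell than rose. Of 21 described, 8 fell and 2 rose, with a median of -0.70. The 4 chemokine genes had 1 lower and 1 higher, the 9 receptor genes 2 lower and 1 higher, and the 8 others 5 lower and 0 higher. CXCL12, the chemokine that attracts CXCR4-bearing cells, went from 992 to 15 counts (-5.93, -6.82 to -5.25), and the interleukin-1 receptor gene IL1R1 from 766 to 111 (-2.71). SOCS2 and SOCS3, feedback inhibitors of cytokine receptors, were at -2.04 and -2.35, and TNFAIP3, a brake on NF-kB, at -1.87. The neutrophil chemokine gene CXCL5 rose from 23 to 85 (1.93). Among 20 genes of the interferon response and MHC class I, IRF9 fell from 74 to 16 (-2.11) with 3 others, HLA-C and HLA-B among them (-1.33 and -1.07, the second at -0.87 with the length trend removed), and OAS1 rose from 28 to 84 (1.63). HLA genes are alike in sequence, and reads between them may have been split.

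Markers of hepatic cancer stem cells did not move together. Of 16 described markers, 2 rose and 3 fell, with a median of -0.04. PROM1 had 114 counts in Huh7 and 88 in Huh7-C (-0.31, -0.73 to 0.11), and EPCAM had 196 and 211 (0.17, -0.11 to 0.46). THY1 had 0 and 1, both under the 3 counts that a count of 0 allows, so no difference was detectable at this depth. The hyaluronan receptor CD44 fell from 177 to 22 (-2.91), the mucin-type protein CD24 from 4639 to 1677 (-1.40), and the drug efflux pump ABCG2 from 220 to 62 (-1.75). ALDH1A1, an aldehyde dehydrogenase used to sort stem-like cells, rose from 1474 to 3904 (1.47, 1.38 to 1.56), and CACNA2D1, a calcium channel subunit, from 24 to 59 (1.35).

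Several genes of mucosal epithelium rose. Of 30 intestinal and mucosal genes, 23 were listed and 9 described. Of these 9, 5 rose and none fell, with a median of 1.62. AGR2, a disulphide isomerase of mucus-producing cells, rose from 575 to 3874 counts (2.82, 2.69 to 2.95), and the membrane mucin MUC13 from 182 to 1042 (2.58). The adhesion proteins CEACAM1 and CEACAM6 went from 18 to 63 (1.85) and from 2 to 81 (5.09, 3.51 to 8.48). The chloride channel CFTR, outside that list, had no count in Huh7 and 80 in Huh7-C, at least 27.9-fold higher. The gut genes CDX2 (-0.33), CDH17 (0.34) and VIL1 (-0.93) stayed within the fold. Of 29 epithelial junction and keratin genes, 3 rose (10.3%) and 1 fell (3.45%), against 5.77% and 5.22% over all described genes. CLDN4, a tight junction protein, rose from 5 to 179 (5.09) and SFN, an epithelial 14-3-3 protein, from 20 to 113 (2.54), and CLDN14 fell from 55 to 2 (-4.41, -7.80 to -2.79).

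The mesenchymal list, which is used to follow the epithelial to mesenchymal transition, had 5 lower and 1 higher of 13 described genes, and a median of -0.04. Several members were nearly level, with FN1 at 18905 and 19466 counts (0.11), VIM at 3410 and 3159 (-0.04) and CDH2 at 300 and 289 (0.01). TGFBI, a matrix protein induced by TGF-beta, fell from 2145 to 203 (-3.33). CAV1 and CAV2, the caveolae proteins, were at -1.76 and -1.32. ZEB1, a repressor of CDH1, rose from 27 to 73 (1.48), and CDH1 was at 0.59. COL3A1, a collagen of fibroblasts, had no count in Huh7 and 58 in Huh7-C (at least 20.2-fold higher), COL1A1 had 18 and 7 counts, LUM 1 and 0, and DCN was not listed.

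Some proliferation genes rose by a modest amount. Of 36 described genes of mitosis, 9 rose and none fell, with a median of 0.65, and the median was 0.64 with the length trend removed, when 6 rose. CENPF, a kinetochore protein, rose from 227 to 656 counts (1.60) and the mitotic kinase gene CDK1 from 39 to 112 (1.58). MKI67, which encodes the Ki-67 antigen, went from 1415 to 3885 (1.52), but it is a long gene and stood at 0.86 with the trend removed. AURKA, at 1321 and 892 counts, pointed the other way within the fold (-0.50). Of 42 genes of DNA replication, 5 rose and none fell, with a median of 0.32, and 3 rose with the length trend removed. MCM7, a helicase subunit, rose from 824 to 1663 (1.08). ODC1, the rate-limiting enzyme of polyamine synthesis and a known MYC target, rose from 1615 to 5142 (1.74, 1.66 to 1.82).

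Chromatin regulators are long genes, and their calls changed with the length trend. Of 40 described, 8 rose and none fell, with a median of 0.50. With the length trend removed, 4 rose and the median was 0.30. HDAC9, a class II histone deacetylase, had 3 counts in Huh7 and 303 in Huh7-C (6.50, 5.16 to 9.01). TET1, which oxidises methylated cytosine, rose from 29 to 179 (2.67), with TET2 at 1.52 and TET3 at 1.57 (0.98 with the trend removed). None of the 13 Polycomb genes passed the fold, and neither did the methyltransferase genes DNMT1 (0.84), DNMT3A (0.16) or DNMT3B (-0.18). PEG10, an imprinted gene derived from a retrotransposon, rose from 446 to 2138 (2.33, and 2.01 with the trend removed).

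Ribosomal protein, respiratory chain and housekeeping genes had medians below 0, with COX7B the single member past the fold. The 59 cytosolic ribosomal protein genes had a median of -0.21 and none was called, and with the length trend removed the median was 0.09. The 47 respiratory chain subunits had a median of -0.47 and -0.20 with the trend removed. COX7B fell from 1187 to 480 (-1.24, but -0.78 with the trend removed). Of 29 housekeeping genes, none was called, and the median moved from -0.18 to 0.07.

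Long noncoding RNAs included 2 of the deepest falls. UCA1, first described in bladder cancer, fell from 3790 to 33 counts (-6.76, -7.32 to -6.28). HULC, a liver cancer transcript, had 76 counts in Huh7 and none in Huh7-C, at least 24.2-fold lower. LINC00261, which neighbours FOXA2, and the imprinted H19 fell to 89 from 373 (-1.99) and to 63 from 249 (-1.91). Of 17 described, 5 fell and none rose, against 6 and 1 with the length trend removed. MALAT1, the most counted, had 4610 and 2510 counts (-0.81) and was past the fold with the length trend removed (-1.26).

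**Figure D4:**
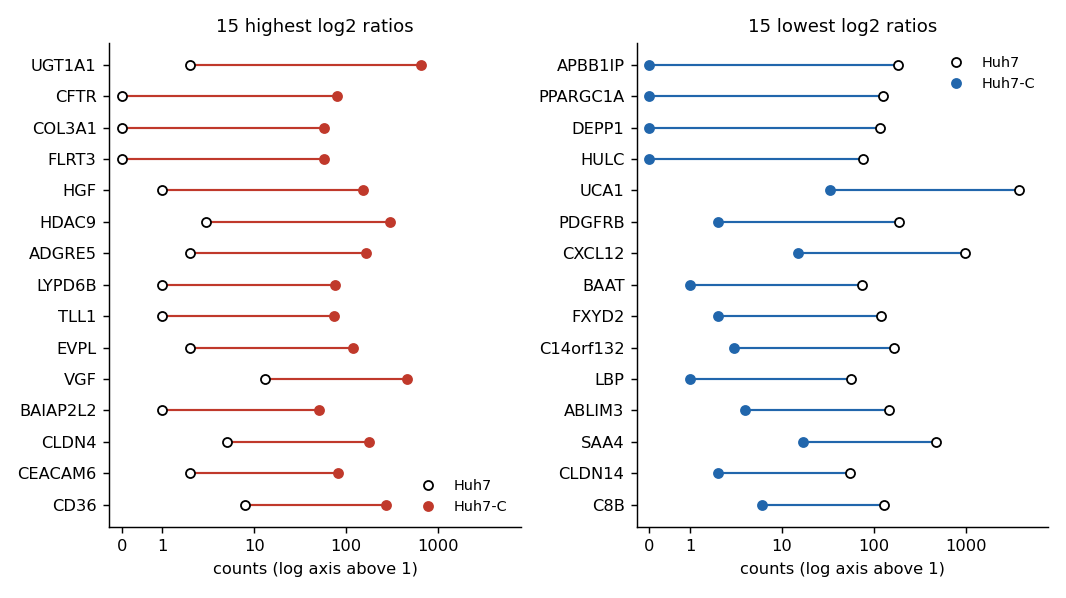
Counts in Huh7 (open circles) and Huh7-C (filled circles) of the 15 genes with the highest and the 15 with the lowest log2 ratio among those past the fold with and without the length trend, on an axis that is logarithmic above 1 count. Genes on the left had 13 counts or fewer in Huh7, 3 of them none, and genes on the right had 33 counts or fewer in Huh7-C, 4 of them none.

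The remaining genes with the largest ratios fell into no single list. Besides PPARGC1A and HULC, APBB1IP, an adaptor of the small GTPase RAP1, had 184 counts in Huh7 and none in Huh7-C (at least 58.6-fold lower), and DEPP1 (C10orf10 in the files), a FOXO target, had 118 and none (at least 37.6-fold lower). FXYD2, the gamma subunit of the sodium pump, fell from 119 to 2 (-5.51, -8.89 to -3.94), and ABLIM3, an actin-binding protein, from 148 to 4 (-4.98). On the other side, ADGRE5 (CD97 in the files), an adhesion receptor, rose from 2 to 166 (6.12, 4.57 to 9.50). VGF, a secreted neuroendocrine peptide precursor, rose from 13 to 464 (5.17, 4.44 to 6.14). EVPL, a protein of the epidermal cornified envelope, rose from 2 to 119 (5.65, 4.08 to 9.02), and the adhesion protein FLRT3 had none and 57 (at least 19.9-fold higher).

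Position in the genome was read last, as runs of up to 40 neighbouring described genes in RefSeq order, with the length trend removed. Of 244 runs, the median of the run medians was 0.08, and 2 runs stood above all others. They were the last 2 of chromosome 8, from C8orf76 to ZNF623 with a median of 0.55 and from FAM83H to C8orf33 with a median of 0.63, against 0.36 for the next highest run. In the first of these 32 of 40 genes were above 0, and as counted 7 rose and 2, MTSS1 and NDRG1, fell. In the second, 34 of 37 genes were above 0, 6 rose and none fell. In the Hep3B pair, as counted, the first run had a median of -0.49. The second had 1.68 there, the highest of all runs in that pair, with the next at 1.24 and the lowest at -2.04. The Huh7 runs, with the length trend removed, lay between -0.28 and 0.63, so the 2 sets of medians are not on the same footing. Genes of the 2 runs that rose changed by modest amounts, such as BOP1, a ribosome assembly factor, from 266 to 654 (1.36), SCRIB, a polarity protein, from 197 to 443 (1.23), and SQLE, the sterol enzyme above, at 1.48. Chromosome 20 was the only one of 23 chromosomes with every run below 0, with 7 runs between -0.26 and -0.10. Of its 280 described genes, 23 fell as counted, among them PCK1, LBP, ID1 and LINC00261, and 7 rose, FLRT3 among them. These runs were singled out after their values were seen, and no test was made.

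**Figure D5:**
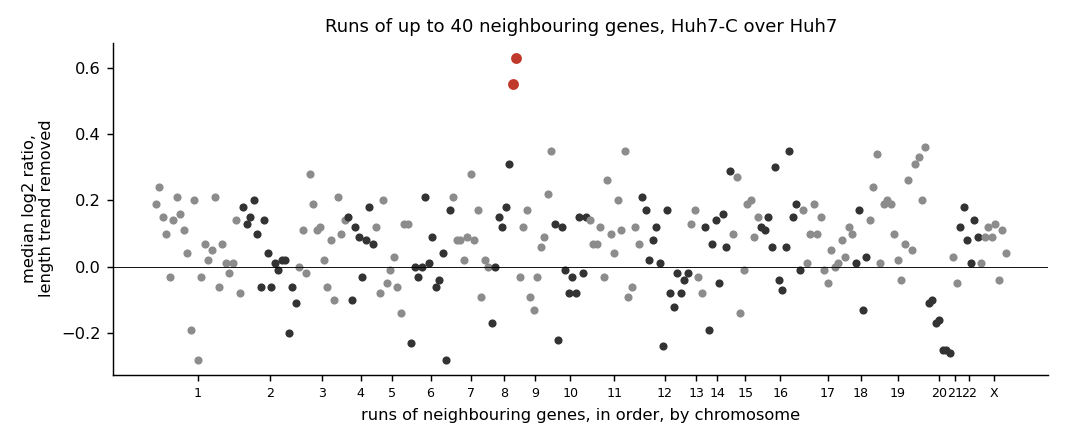
Median log2 ratio of Huh7-C over Huh7, with the length trend removed, in 244 runs of up to 40 neighbouring described genes, ordered along each chromosome and shaded by chromosome. The last 2 runs of chromosome 8 (red) are at 0.55 and 0.63, and all 7 runs of chromosome 20 are below 0.

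The Hep3B pair offers the same contrast in another line, with 1 library a side, and its values are set beside those of Huh7 as a description. Of the 563 genes higher in Huh7-C, 465 also had at least 50 counts in the Hep3B pair, and 71 of these were at a log2 ratio of 1 or more there and 237 at -1 or less. Of the 510 lower genes, 357 did, and 58 and 151 were past 1 and -1. Over all 8829 genes with that many counts in both pairs, 19.9% were at 1 or more in the Hep3B pair and 34.0% at -1 or less. Examples past the fold in the same direction in both pairs, picked after their values were seen, were FASN, AGR2 and NQO1 on the higher side. FASN had 1894 counts in Hep3B and 48019 in Hep3B-C (3.98), AGR2 had 2 and 590, and NQO1 had 48 and 1033 (3.73). On the lower side PPARGC1A had 109 counts in Hep3B and 11 in Hep3B-C (-3.93), HULC had 194 and 33 (-3.22), and CXCL12 had 319 and 134 (-1.93).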

How the data were processed

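Total RNA of Huh7 and Huh7-C was sequenced by the authors on an Illumina Genome Analyzer II, 1 library per line. Adapters and low-quality reads were removed, reads were aligned to NCBI Build 36.1 with NextGENe, and the authors deposited counts per gene with gene lengths. The NextGENe version, the annotation, the use of strand and the handling of reads with several matches are not given in the sources used here. The counts were joined by gene ID. The 8 rows named by a transcript in place of a gene ID (0.0135% of Huh7 counts and 0.0120% of Huh7-C counts) were kept in the totals.

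CPM came from the column totals. The log2 ratio used 0.5 added to each count. A gene was called at a log2 ratio of 1 or more in size with at least 50 counts in the pair. No p-value was computed for the main calls, since each line had 1 library. The length trend was a lowess fit (span 0.3) of the ratio on log length. Intervals were exact (Clopper-Pearson, 95%). RefSeq matched 14714 of the 14807 listed rows by gene ID. Its promoters (GRCh38.p14) serve as annotation only, since the counts were made on another build.

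The comparison, members and gene lists were chosen with earlier results of these data known. Genes to name were drawn from the 15 highest and 15 lowest ratios past the fold with and without the length trend, the 10 largest rises and falls in CPM, the up to 4 largest changes and the most counted gene of each list, and PROM1, EPCAM and THY1. Not all of these are printed, and other list members were added for their role. Some list members are not reported here. Alternatives were TMM (edgeR 4.0.16) and DESeq2 1.42.0 library sizes in R 4.3.3, other count minimums, 5 added to each count, the length trend, a log2 threshold of 1.5, a Poisson-based test, and intervals wholly beyond the fold. Scripts were tested on simulated data and ran in Python 3.11.15 with numpy 2.4.6, scipy 1.17.1, pandas 2.3.3 and statsmodels 0.14.6.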

Additional observations from a re-analysis of the deposited data

Results flagged for a closer look

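Among the genes with the largest ratios or changes in CPM in the Huh7 pair, 6 were past the fold in the opposite direction in the Hep3B pair. Over all genes with at least 50 counts in both pairs, 19.9% were at 1 or more in the Hep3B pair and 34.0% at -1 or less. Of all genes higher in Huh7-C, 237 of the 465 with that many counts were at -1 or less there. Of the lower genes, 58 of 357 were at 1 or more, so opposite calls were common. Each line had 1 library a side, and the difference between the pairs was not tested. APOA1 fell in Huh7-C (-1.87) and was higher in Hep3B-C, with 1333 and 10986 counts in Hep3B and Hep3B-C (2.36). SERPINA1 did the same, at -1.23 in the Huh7 pair and 1.41 in the Hep3B pair, where it had 29292 and 124896 counts. HDAC9 rose in Huh7-C (6.50) and was lower in Hep3B-C (155 and 6 counts, -5.26). FLRT3, with no count in Huh7 and 57 in Huh7-C, had 94 and 16 in the Hep3B pair (-3.20). MKI67 was at 1.52 in the Huh7 pair (0.86 with the length trend removed) and -1.47 in the Hep3B pair (2480 and 1433 counts). PRKDC, the catalytic subunit of DNA-dependent protein kinase, rose from 1061 to 3508 counts in Huh7-C (1.79, or 1.08 with the length trend removed). In the Hep3B pair it was at -1.02 (3500 and 2760 counts). The Hep3B ratios are as counted, with no length trend removed.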

How the results depend on the processing

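The counts of 563 higher and 510 lower genes moved most with the threshold and the count minimum. With no minimum they were 1773 and 1905, with a log2 threshold of 1.5 they were 150 and 216, and with the counting interval wholly beyond the fold 211 and 235. The counts under the other settings were within 1.5 times the reported ones: 502 and 553 with TMM library sizes, 469 and 583 with DESeq2 size factors, 409 and 499 with the length trend removed, and 620 and 614 with the Poisson-based test. The median log2 ratio of 0.066 became 0.025 with TMM and 0.000 with DESeq2. The correlation with length, 0.351, was 0.315, 0.378 and 0.215 with a minimum of 20 counts, of 100 and none. Of 160 named genes past the fold, 142 were past it with the length trend removed. The labels pair Huh7-C with Huh7 and Hep3B-C with Hep3B. Within the Huh7 pair no replicates could be paired, because each culture had 1 library and the labels carry no replicate numbers. At 50 counts split evenly the interval spans 0.86 on either side on the log2 scale, so single genes near the fold and the minimum are not resolved at this depth. The Poisson-based test compares these 2 libraries, not the conditions.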

Other observations

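Several further gene groups had members past the fold. Over all described genes 5.77% were higher and 5.22% lower, or 4.19% and 5.11% with the length trend removed, and the shares of several of these lists were near that. Of 43 described genes of glycolysis and the hypoxia response, 6 fell and 1 rose (2.33%), with a median of -0.05, against 5 and 2 with the trend removed. CA9, a carbonic anhydrase induced by hypoxia, fell from 266 to 54 counts (-2.22), EGLN3, an oxygen sensor and target of HIF, from 204 to 44 (-2.13), and NDRG1, a stress-induced protein, from 4010 to 1653 (-1.21). The glycolytic enzyme gene ALDOC rose from 9 to 77 (3.09). Of 31 matrix and integrin genes, 3 fell (9.68%) and 2 rose (6.45%, 1 gene with the trend removed), among those that fell TIMP3, an inhibitor of metalloproteinases, from 261 to 36 (-2.77). Of 18 hepatic transporters, 4 fell and 2 rose, and neither rise was past the fold with the trend removed, with the glucose carrier SLC2A2 at 665 and 306 counts (-1.05) and the manganese exporter SLC30A10 at 59 and 14 (-1.97).

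Among developmental pathways, 3 of 18 Notch genes rose and none fell, against 2 and 1 with the trend removed. The Notch feedback gene NRARP went from 12 to 42 counts (1.83, 0.92 to 2.93) and HES6 from 22 to 64 (1.59). NOTCH1 was past the fold as counted (1.11) and not with the length trend removed (0.63). Of 22 Wnt genes, 2 rose and 2 fell (9.09% each), and 1 rose with the trend removed. The secreted protein gene DKK3 fell from 225 to 65 (-1.72), the receptor gene FZD4 from 122 to 37 (-1.64), and the beta-catenin regulator APC rose from 60 to 181 (1.65, 1.07 with the trend removed). Of 25 YAP and Hippo genes, 2 rose (1 with the trend removed) and none fell, with the kinase gene LATS1 at 43 and 116 (1.49). Of 29 genes of the p53 response and cell death, 4 fell and 3 rose. Of 35 genes of the amino acid and ER stress response, 1 rose and 1 fell, and of 16 metallothionein and iron genes 3 fell and none rose (2 and 1 with the trend removed), among them the iron exporter SLC40A1, from 174 to 52 (-1.67). Of 11 oncofetal genes, 3 rose (2 with the trend removed) and 1 fell.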
